A study of Mus musculus with 6 samples.

Results

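Open chromatin was followed around 6 genes of the Hedgehog pathway, Shh, Ptch1, Smo, Gli1, Gli2 and Gli3, in sorted urothelial cells of mice with a Stag2 knockout (KO) or with intact Stag2 (WT). The members were all distinct intervals of the 6 deposited peak lists that overlap the mm10 span of one of these genes widened by 100 kb on each side. There were 1563 such intervals of 1085290 over the 6 lists. KO libraries held 357, 233 and 259 of them and WT libraries held 246, 256 and 225, for replicates 1, 2 and 3 of each genotype. By gene, the number over the 6 lists was 201 for Shh, 212 for Ptch1, 227 for Smo, 232 for Gli1, 466 for Gli2 and 225 for Gli3.

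Hedgehog signalling starts when a secreted ligand, here Sonic hedgehog from Shh, binds the receptor Patched, made from Ptch1. Without ligand, Patched holds the membrane protein Smoothened, made from Smo, inactive, and with ligand Smoothened signals through the primary cilium to the GLI transcription factors. Gli2 is known mainly as the activator, Gli3 mainly as the repressor, and Gli1 and Ptch1 are themselves targets that are switched on by the pathway. In the bladder, basal urothelial cells are known as the source of Sonic hedgehog, and stromal cells beneath the epithelium are known as the cells in which Gli1 and Ptch1 respond.

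ATAC-seq, in which a transposase inserts adapters into accessible DNA, had been run on 3 KO and 3 WT libraries, all of batch 1. Both genotypes had received TMX in the diet, and the cells were taken from peeled urothelium 1 week after TMX and sorted as GFP-positive and DAPI-negative, with 50000 cells per condition. Stag2 makes one of the subunits of cohesin, a ring that folds chromatin into loops. The titles call the libraries biological replicates. Neither the driver of the deletion nor the number, age or sex of the animals behind each is given in the labels used here, so whether the spread behind the p-values is one between animals is not known. The KO lists held 260462, 149153 and 177320 distinct intervals and the WT lists 168561, 174275 and 165214. Each interval carries the authors' fold over the local background, and because that fold depends on the depth of its library, only ranks were compared. Rank 1 is the interval of highest fold in a library, each list was shortened to its best 100000, and a region with no interval left in a library received the next rank after these. A rank gain is the KO mean minus the WT mean of −log2 rank, so a gain of 1 is a rank better by a factor of 2 in KO.

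KO replicate 3 stood apart from its group. Over all tested regions, its −log2 ranks had a Spearman correlation of 0.79 with each of the other 2 KO libraries, against 0.84, 0.86 and 0.90 with WT replicates 1, 2 and 3, while KO replicates 1 and 2 correlated at 0.89. Values without KO replicate 3 are therefore given beside the region counts. The genotypes were not cleanly apart elsewhere either. WT replicate 2 correlated at 0.79 and 0.83 with KO replicates 1 and 2, against 0.80 and 0.87 with WT replicates 1 and 3. The open region at the end of Stag2 itself ranked 16287, 20829 and 26329 in KO libraries and 29586, 34076 and 28720 in WT libraries, which does not read the deletion.

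The 6 windows differed in how crowded they were. Smo had 11.0 intervals of the best 100000 per 100 kb and library, Gli1 had 9.45, Gli2 had 9.04, Shh had 8.80, Gli3 had 4.65 and Ptch1 had 3.90, and the median over all tested gene windows was 7.81. The best 100000 intervals of the 6 libraries merged to 196 regions in the 6 windows, and 87 of these (44.4%) had an interval in all 6 libraries, against 47.6% of all 138957 regions. Not all of them lie close to a member gene. Of the 31 regions in the Smo window, 22 were nearest to an end of another gene, such as Tspan33 or Ahcyl2, and of the 23 in the Gli1 window 20 were, since 9 other genes lie in that window. In contrast, 59 of 61 regions were nearest to Gli2 and all 33 to Gli3, with no other protein-coding gene in either window. The Shh window, shared with Rbm33, had 16 of 25 regions nearest to Shh, and the Ptch1 window, shared with Fancc, had 17 of 23 nearest to Ptch1.

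**Figure D1:**
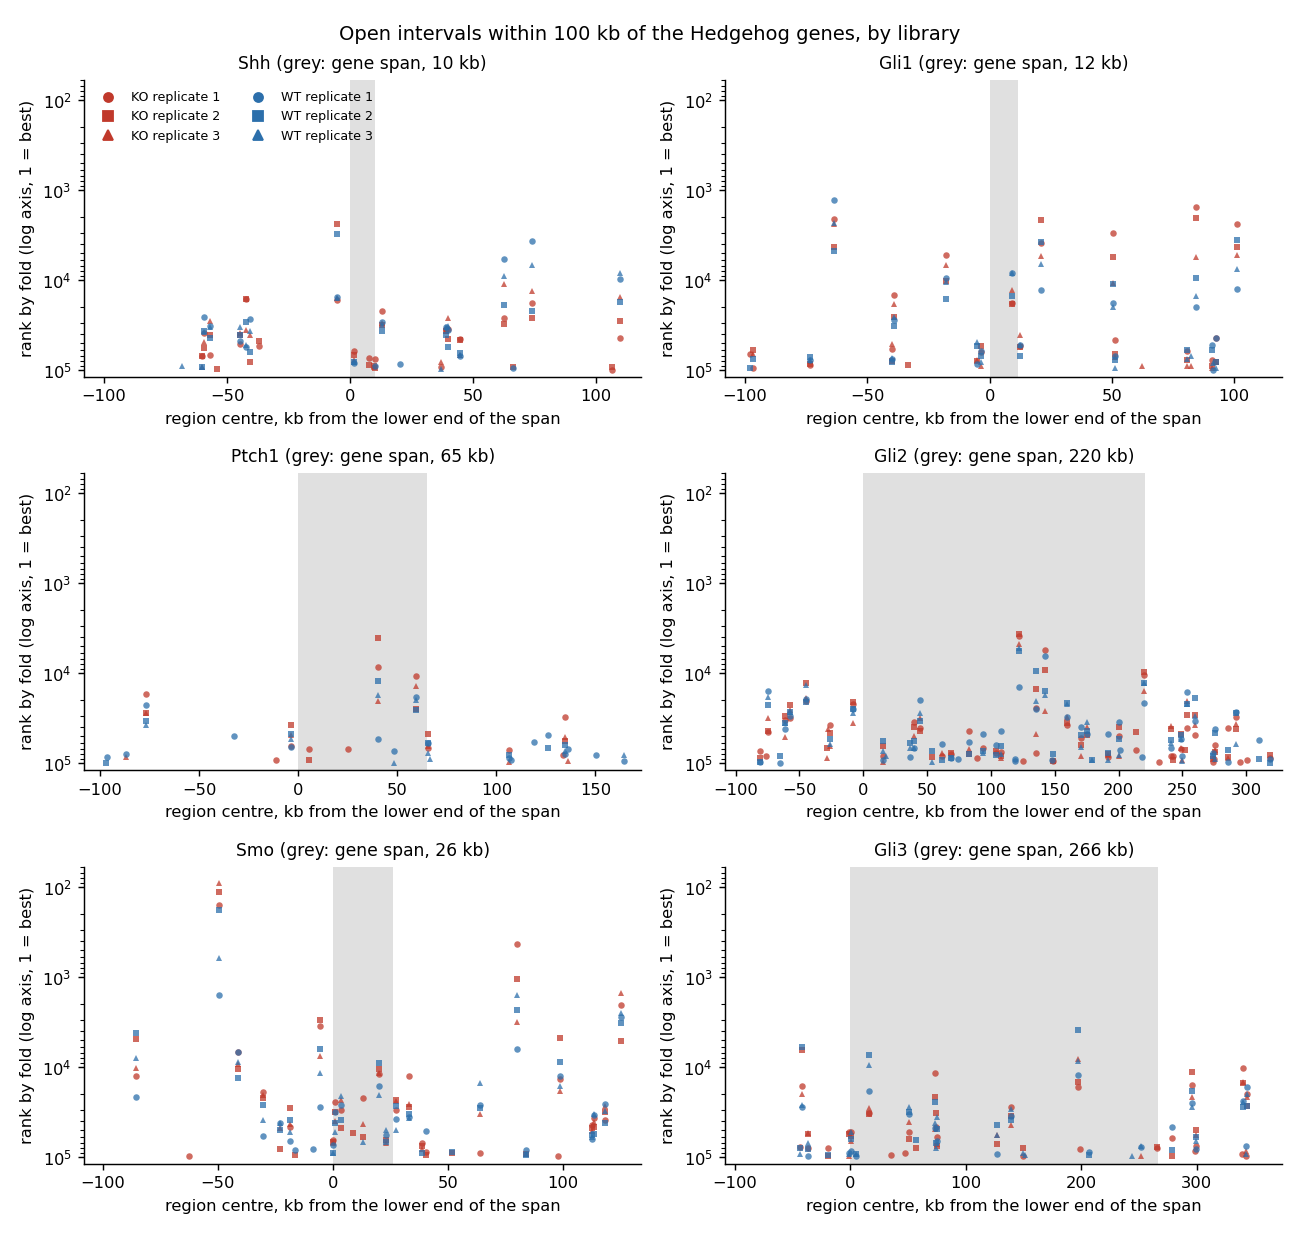
Rank by fold (log axis, 1 is best) of each open region in each library against the distance of its centre from the lower end of the gene span in kb, for the 3 KO and 3 WT libraries, with the gene span in grey. The regions of best rank in the Smo window lie outside the Smo span, the strongest ranking 158, 116 and 90 in KO libraries and 1617, 184 and 622 in WT libraries, whereas the best regions of Gli2 lie inside its span.

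The start sites of the members were not equally open. RefSeq sequences from 250 bases before to 50 bases after the start (GRCm38.p6, the coordinates of mm10) matched 4 of the 6 genes, Ptch1, Smo, Gli2 and Gli3. They are printed 5′ to 3′ on the strand of the gene because they show how much of each promoter lay in open chromatin. Capitals mark bases inside a region built from the best 100000 intervals of the 6 libraries. All 300 bases were inside a region for Gli2 (chr1:119053570-119053869, minus strand), 208 for Gli3 (chr13:15463473-15463772, plus strand), 199 for Smo (chr6:29735247-29735546, plus strand) and 0 for Ptch1 (chr13:63565686-63565985, minus strand).
Gli2: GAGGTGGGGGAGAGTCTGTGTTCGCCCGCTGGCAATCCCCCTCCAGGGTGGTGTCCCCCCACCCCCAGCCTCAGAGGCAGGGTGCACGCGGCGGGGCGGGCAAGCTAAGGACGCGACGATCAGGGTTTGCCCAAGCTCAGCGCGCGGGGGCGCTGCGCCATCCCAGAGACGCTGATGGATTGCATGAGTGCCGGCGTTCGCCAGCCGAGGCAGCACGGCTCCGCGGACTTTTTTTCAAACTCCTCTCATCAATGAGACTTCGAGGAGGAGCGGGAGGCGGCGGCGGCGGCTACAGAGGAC
Gli3: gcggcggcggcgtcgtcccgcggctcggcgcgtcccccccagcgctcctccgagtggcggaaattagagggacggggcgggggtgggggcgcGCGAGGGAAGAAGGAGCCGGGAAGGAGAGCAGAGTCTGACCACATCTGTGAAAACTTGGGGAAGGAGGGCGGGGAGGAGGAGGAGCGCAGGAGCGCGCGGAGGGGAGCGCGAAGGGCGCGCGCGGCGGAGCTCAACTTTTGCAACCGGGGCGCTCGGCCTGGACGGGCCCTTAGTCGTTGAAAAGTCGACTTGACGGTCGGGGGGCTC
Smo: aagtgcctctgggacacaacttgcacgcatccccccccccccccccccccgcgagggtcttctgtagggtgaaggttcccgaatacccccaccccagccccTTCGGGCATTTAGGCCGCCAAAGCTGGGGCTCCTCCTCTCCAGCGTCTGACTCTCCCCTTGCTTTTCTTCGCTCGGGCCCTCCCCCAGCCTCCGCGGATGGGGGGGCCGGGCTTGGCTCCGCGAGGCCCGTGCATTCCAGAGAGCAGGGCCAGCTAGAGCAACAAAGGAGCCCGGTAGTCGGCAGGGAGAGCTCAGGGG
Ptch1: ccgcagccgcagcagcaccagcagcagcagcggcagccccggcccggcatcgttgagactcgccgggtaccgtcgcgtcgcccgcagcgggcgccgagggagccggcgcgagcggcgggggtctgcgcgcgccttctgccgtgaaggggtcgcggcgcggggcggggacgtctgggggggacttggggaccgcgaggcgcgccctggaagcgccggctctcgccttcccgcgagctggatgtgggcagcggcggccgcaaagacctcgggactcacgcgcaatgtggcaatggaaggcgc

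All 4 promoters were rich in G and C. The share of G and C was 67.3% for Gli2, 71.0% for Gli3, 67.7% for Smo and 76.3% for Ptch1, against a median of 52.7% over 32851 mouse promoters of the same length. They held 28, 39, 17 and 47 CpG dinucleotides in the same order, against a median of 7. The Ptch1 promoter thus had the most CpG dinucleotides of the 4 and the fewest bases in an open region. On either strand, the SP and KLF motif GGGCGG had 1 match in Gli2, 2 in Gli3, 0 in Smo and 1 in Ptch1, and 35.7% of all promoters held a match. The GLI motif GACCACCCA, found in 0.253% of all promoters, and the AP-1 motif TGANTCA, found in 7.81%, had no match in these 4 windows, and no match overlapped another motif.

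For starts, the whole lists were searched within 500 bp, so ranks beyond 100000 appear. The interval at the Gli2 start ranked 10523, 9712 and 15607 by fold in KO libraries and 21463, 12702 and 12867 in WT libraries. The best interval at the Smo start ranked 24414, 32071 and 40147 in KO libraries and 32282, 42388 and 92139 in WT libraries, where the stronger Smo interval of WT replicate 3 began beyond 500 bp. At the Gli3 start the ranks were 53269, 55644 and 67350 in KO libraries and 87287, 63546 and 53007 in WT libraries. Thus by fold Gli2, the main activator, had the best-ranked start in every library, and KO and WT ranks overlapped at each of the 3 starts. By p, the Smo start was ahead of the Gli2 start in KO replicates 1 and 2, at 8702 and 8881 against 11079 and 13508. In the remaining libraries Gli2 was ahead by p as well. At the annotated Ptch1 start the intervals were weak by fold, with ranks of 130951, 123872 and 155464 in KO libraries and 162632, 147194 and 142233 in WT libraries. Ranked by p, which also grows with depth at a site, the same start was placed at 56144, 55860 and 99668 in KO libraries and 119150, 77086 and 92307 in WT libraries, again with overlap. For Shh, whose strand the gene table does not give, the upper span end ranked 76106, 95710 and 106299 by fold in KO libraries and 89884, 107611 and 109861 in WT libraries, and the lower end had no interval. Neither end of the Gli1 span had an interval within 500 bp in any list. The nearest open region to the upper Gli1 end began 567 bp beyond it (chr10:127342146-127342616) and ranked 55166, 55494 and 41274 in KO libraries and 52559, 70393 and 53472 in WT libraries.

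**Figure D2:**
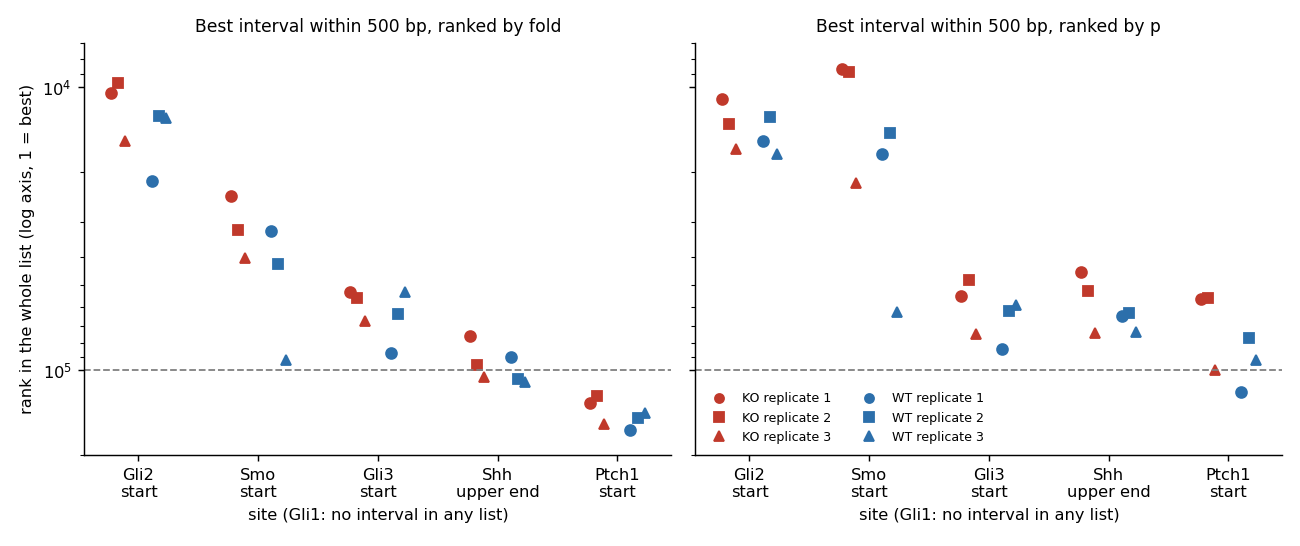
Rank in the whole list (log axis, 1 is best) of the best interval within 500 bp of the annotated start (upper span end for Shh), by fold on the left and by p on the right, for 3 KO and 3 WT libraries, with rank 100000 dashed. By fold the Gli2 start ranks between 9712 and 21463 in all 6 libraries and the Ptch1 start between 123872 and 162632.

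Whether open chromatin at the Hedgehog genes differed between Stag2 KO and WT cells was read from a limma fit over all 100565 regions that had an interval in at least 3 libraries. Of the 196 member regions 128 were tested, and the rest had an interval in fewer libraries. No member region passed an adjusted p of 0.05 in either direction (limma, Benjamini-Hochberg over all tested regions), and the smallest adjusted p was 0.255. Over all tested regions 12 (0.0119%) were higher in KO and 9 (0.00895%) lower. At an unadjusted p below 0.05, 11 of the 128 member regions were higher in KO and 7 lower, or 8.59% and 5.47%, against 6.97% and 7.84% of all tested regions (14.8% in either direction). The KO and WT ranks did not overlap in 15 member regions higher in KO and 8 lower, or 11.7% and 6.25%, against 11.4% and 8.17% of all tested regions. These shares are near the background and are not a result about the Hedgehog genes. Of the 8, 2 had no interval in any KO library and so entered the test only through the WT libraries. The median rank gain was 0.08 over the 128 regions and 0.02 over all tested regions.

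Counted by gene, the direction of the gains was as follows, without a test of the difference between genes. All 7 tested Ptch1 regions had a gain above 0, with a median of 0.38, but most of the 23 Ptch1 regions were not tested, and 10 of the 23 were in WT lists only against 4 in KO lists only. A gain above 0 was also found for 18 of 25 Smo regions (median 0.34) and 13 of 18 Gli1 regions (median 0.25). Shh was even, with 9 of 17 above 0 (median 0.10), and so was Gli3, with 11 of 23 (median −0.02). For Gli2, 15 of 38 regions had a gain above 0 (median −0.07). Over all tested regions 51.5% had a gain above 0. Without KO replicate 3, 2 member regions were called higher and 1 lower of 125, against 0.884% and 1.67% of all regions tested without it. They were chr10:127413647-127414523 near Gli1 (gain 2.99, limma adjusted p = 0.0424), chr13:15462661-15463440 near Gli3 (gain 0.81, adjusted p = 0.0488) and chr6:29799254-29799893 near Smo (gain −2.08, adjusted p = 0.0404). KO replicate 3 was singled out by these same ranks. Leaving out the KO library most like the WT libraries favours such calls, so they are not separate support.

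**Figure D3:**
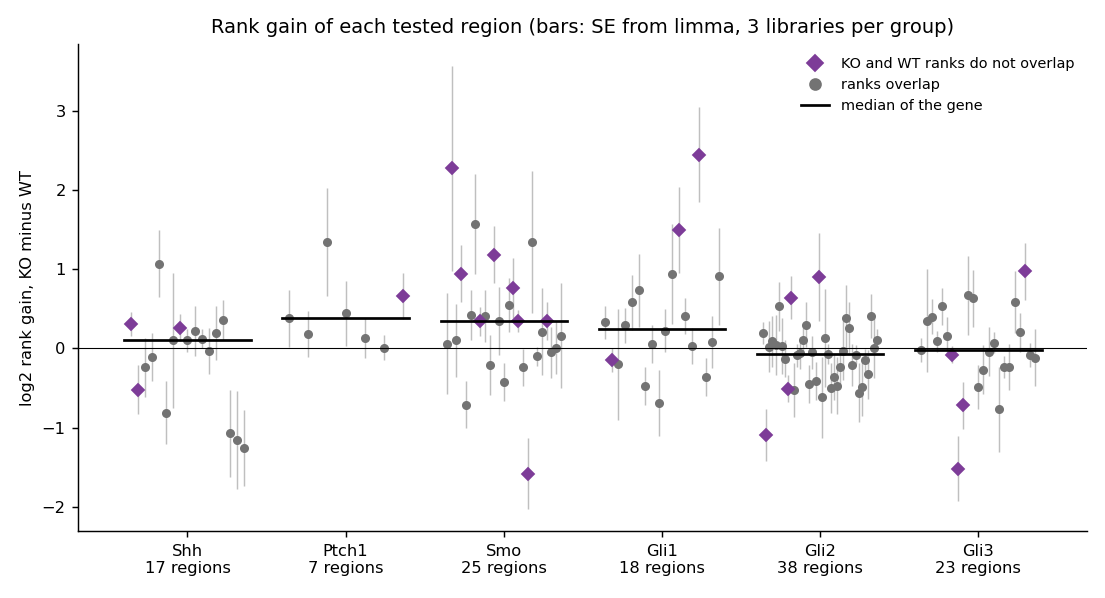
Rank gain (KO minus WT in −log2 rank) of each of the 128 tested regions by gene, in genome order within a gene, with the standard error from limma (3 libraries per group); diamonds mark regions whose KO and WT ranks do not overlap, and the black bars are medians. The 7 tested Ptch1 gains lie above 0, while the 10 Ptch1 regions in WT lists only and the 4 in KO lists only are not plotted, and the gains of the 6 genes run from −1.58 to 2.44.

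For the ligand gene Shh, the number of open intervals in the window was higher in each KO library than in each WT library. The window held 20, 23 and 19 of the best 100000 intervals in KO libraries and 17, 15 and 17 in WT libraries, a mean of 20.7 ± 2.08 against 16.3 ± 1.15 (SD, n = 3 each). The log2 difference in count (plus 1) was 0.32 ± 0.09 (SE), with an unadjusted p of 0.0108 and a limma adjusted p of 0.384 over 18408 gene windows, so it was not called. Of these windows 0% were called in either direction, 7.59% had an unadjusted p below 0.05 with more intervals in KO and 3.69% with fewer. Counts that did not overlap, as for Shh, were found in 7.17% of windows with more in KO and 3.12% with fewer. Without KO replicate 3 the Shh difference was 0.38 (limma adjusted p = 0.217). Among the best 50000 intervals of each library it was 0.08 (adjusted p = 0.756), so the difference was not seen at the better-ranked intervals.

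The best ranks at Shh overlapped between the genotypes. The best Shh-window interval ranked 16296, 2386 and 11286 in KO libraries and 3695, 3140 and 6918 in WT libraries. Inside the 10262 bp of the gene itself, the best region (chr5:28457846-28459342) ranked 61387, 69138 and 78707 in KO libraries and 84881, 81800 and 82861 in WT libraries. Every KO library ranked it above every WT library, with a gain of 0.26 ± 0.17 (SE) and a limma adjusted p of 0.473. The region at the upper span end (chr5:28466714-28467210) was in the best 100000 of KO replicates 1 and 2, at 76106 and 95710, and of WT replicate 1, at 89884. Its gain was 0.10 ± 0.14 (adjusted p = 0.737).

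Shh is known to be controlled from far away, and the more strongly ranked regions of its window lay outside the gene. A region 5215 bp below the span (chr5:28451237-28451625) ranked 16811, 2386 and 15770 in KO libraries and 15488, 3140 and 16152 in WT libraries, so that both libraries numbered 2 were high and the groups overlapped. The smallest p in favour of KO belonged to chr5:28414194-28414700 inside Rbm33, which ranked 16296, 16315 and 36409 in KO libraries and 56614, 29524 and 53430 in WT libraries. KO replicate 3 and WT replicate 2 overlapped, and the gain was 1.07 ± 0.42 (adjusted p = 0.300). The smallest p in favour of WT belonged to chr5:28566082-28566600, 98981 bp above the span, which ranked 44769, 28493 and 15611 in KO libraries and 9904, 17473 and 8457 in WT libraries. Here KO replicate 3 lay among the WT libraries, and the gain was −1.26 ± 0.48 (adjusted p = 0.293). The neighbouring regions chr5:28518920-28519554 and chr5:28530209-28531065, on the same side of Shh and chosen after their values were seen, had gains of −1.07 ± 0.55 and −1.16 ± 0.62, with KO and WT ranks that overlapped.

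The window of the receptor gene Ptch1 had fewer intervals on average in KO libraries and better mean ranks, and neither passed a test. The window held 11, 7 and 9 intervals in KO libraries and 17, 9 and 9 in WT libraries. The groups overlapped, and the log2 difference was −0.30 ± 0.26 (limma adjusted p = 0.656). WT replicate 1 alone had 17, and without it the difference was −0.02. The best Ptch1-window interval ranked 8622, 4092 and 13708 in KO libraries and 18254, 12192 and 17503 in WT libraries.

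Within the Ptch1 span the best region by mean rank, chr13:63548552-63549022, lies in the gene body 24438 bp from the upper span end. It ranked 8622, 4092 and 20448 in KO libraries and 54427, 12192 and 17503 in WT libraries, with KO replicate 3 among the WT values and a gain of 1.34 ± 0.68 (adjusted p = 0.373). A region between the annotated start and the upper span end (chr13:63567741-63568321), chosen after its values were seen, ranked 10833, 24696 and 13708 in KO libraries and 18254, 25482 and 19831 in WT libraries. On the minus strand of Ptch1 the upper span end lies before the annotated start, and whether transcription also starts there was not tested. The upper span end itself (chr13:63573315-63574067) ranked 68006, 47314 and 65040 in KO libraries and 59880, 59531 and 76764 in WT libraries. These groups overlapped. The smallest p in the window belonged to chr13:63642624-63642975, 69164 bp above the span, with ranks of 30581, 57326 and 51494 in KO libraries and 78142, 62105 and 74076 in WT libraries. All KO ranks were better than all WT ranks, with a gain of 0.66 ± 0.29, an unadjusted p of 0.0455 and an adjusted p of 0.331. No tested Ptch1 region had a gain below 0, a count that rests on the requirement of 3 libraries, since the regions left out by it include all of the 10 found in WT lists only and the 4 found in KO lists only.

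Smo, the gene of the signal transducer Smoothened, lies in the most crowded of the 6 windows per length. The window held 25, 28 and 24 intervals in KO libraries and 25, 24 and 23 in WT libraries, with overlap and a log2 difference of 0.09 ± 0.07 (limma adjusted p = 0.624). A pair of regions stood at the Smo start. The first, chr6:29735348-29735644, covers the start and ranked 64551, 68214 and 70465 in KO libraries and 74106, 91500 and 92139 in WT libraries, with no overlap, a gain of 0.34 ± 0.18 and an adjusted p of 0.384. The second, chr6:29735722-29736638, begins 225 bp inside the span and ranked 24414, 32071 and 40147 in KO libraries and 32282, 42388 and 53452 in WT libraries. It was the stronger of the pair in every library, its groups overlapped, and its gain was 0.41 ± 0.33 (adjusted p = 0.558).

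Inside the gene, chr6:29755450-29755756 was the best Smo region by mean rank, at 12092, 10620 and 11871 in KO libraries and 16268, 9144 and 20708 in WT libraries. The groups overlapped, and the gain was 0.34 ± 0.43. The wide region chr6:29747866-29749137 ranked 22531, 59940 and 43548 in KO libraries and 69119 in WT replicate 3, and it was not among the best 100000 of WT replicates 1 and 2. The KO ranks were all better, with a gain of 1.18 ± 0.36, an unadjusted p of 0.00699 and an adjusted p of 0.266. Just below the gene, 5184 bp from its start, chr6:29729653-29730313 ranked 3521, 3039 and 7523 in KO libraries and 28048, 6307 and 11872 in WT libraries. KO replicate 3 and WT replicate 2 overlapped there, and the gain was 1.57 ± 0.63 (adjusted p = 0.304).

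The most extreme ranks of the Smo window belonged to regions nearer to other genes. The strongest interval of any of the 6 windows lay in chr6:29685483-29686316, 49181 bp below Smo and 7898 bp from an end of Tspan33. Its fold over the local background was 39.4, 48.2 and 36.2 in KO libraries and 24.4, 44.7 and 31.1 in WT libraries. Its ranks of 158, 116 and 90 in KO libraries and 1617, 184 and 622 in WT libraries did not overlap, with a gain of 2.27 ± 1.29 and an adjusted p of 0.413. In the opposite direction, chr6:29799254-29799893 inside Ahcyl2 ranked 91817 and 33471 in KO replicates 1 and 3, was not among the best 100000 of KO replicate 2, and ranked 26353, 28906 and 15174 in WT libraries. All WT ranks were better, with a gain of −1.58 ± 0.45, an unadjusted p of 0.00534 and an adjusted p of 0.263.

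Gli1, the transcription factor gene that the pathway itself switches on, had a single open region inside its 11698 bp. That region, chr10:127338855-127339394, lies 2185 bp from the upper span end and ranked 17912, 18769 and 13108 in KO libraries and 8469, 15036 and 8319 in WT libraries. KO replicate 3 overlapped WT replicate 2, and the gain was −0.69 ± 0.42 (adjusted p = 0.440). It was the lowest gain of the 18 tested regions in the Gli1 window, of which 5 were below 0. The region with the smallest p against KO, chr10:127324555-127324801 in Arhgap9, had a gain of −0.47 ± 0.24 (adjusted p = 0.384).

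The Gli1 window as a whole held 20, 20 and 23 intervals in KO libraries and 18, 20 and 19 in WT libraries, with a log2 difference of 0.14 ± 0.08 (limma adjusted p = 0.518). Its best interval ranked 1556, 2055 and 2434 in KO libraries and 1303, 3637 and 2357 in WT libraries, and the groups overlapped. The largest gain among all 128 member regions lay in this window but inside R3hdm2, 72068 bp above Gli1. It was chr10:127413647-127414523, with ranks of 1556, 2055 and 5632 in KO libraries and 19888, 9604 and 15021 in WT libraries. All KO ranks were better, with a gain of 2.44 ± 0.60, an unadjusted p of 0.00204 and the adjusted p of 0.255 given above. Another R3hdm2 region, chr10:127380109-127380767 at an end of that gene, ranked 3024, 5606 and 10749 in KO libraries and 18303, 11140 and 19968 in WT libraries, with a gain of 1.49 ± 0.54.

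Gli2, whose product is the main activator of the response, had 33 of its 61 regions inside the gene. The window held 44, 38 and 32 intervals in KO libraries and 43, 40 and 31 in WT libraries. The means were equal at 38.0, and the log2 difference was 0.00 ± 0.15 (limma adjusted p = 1.00). The best Gli2-window interval ranked 3821, 3628 and 4789 in KO libraries and 6467, 5714 and 5256 in WT libraries, with each KO library ahead of each WT library. In 5 of the 6 libraries it was the intragenic region chr1:118955727-118956341, which lies 98064 bp from the nearer span end. That region ranked 14286 in WT replicate 1, which made its gain 0.90 ± 0.55 (adjusted p = 0.441).

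At the Gli2 start, chr1:119053395-119053884 had the ranks given above and a gain of 0.38 ± 0.42 (adjusted p = 0.667). Further into the gene, chr1:118873425-118874085 ranked 34903, 39743 and 49411 in KO libraries and 67750, 56715 and 68100 in WT libraries, with no overlap, a gain of 0.64 ± 0.27 and an adjusted p of 0.313. Not far from it on its lower side, chr1:118870114-118870409, chosen after its values were seen, was in none of the best 100000 of the KO libraries and ranked 84856, 59484 and 68328 in WT libraries. It entered the fit only through the WT libraries, which fixed its direction, so no test is given for it. Outside the gene, 73981 bp below it, chr1:118759470-118760080 ranked 45131, 44343 and 31318 in KO libraries and 15790, 22478 and 18287 in WT libraries. All WT ranks were better, with a gain of −1.09 ± 0.33, an unadjusted p of 0.00784 and an adjusted p of 0.267.

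Gli3, whose product is mainly a repressor without ligand, had 20 of its 33 regions inside its span of 266304 bp. The window held 26, 21 and 18 intervals in KO libraries and 21, 21 and 23 in WT libraries, with a log2 difference of −0.01 ± 0.13 (limma adjusted p = 0.994). Its best interval ranked 10225, 6465 and 8186 in KO libraries and 12277, 3885 and 8728 in WT libraries, and the groups overlapped. A pair of regions flanked the Gli3 start. The one that covers it, chr13:15463565-15464636, ranked 53422, 59376 and 67350 in KO libraries and 87287, 63546 and 53007 in WT libraries, with a gain of 0.15 ± 0.25 (adjusted p = 0.779). The one 283 bp below it, chr13:15462661-15463440, ranked 53269, 55644 and 97504 in KO libraries and 91730 and 94281 in WT replicates 1 and 3, and was not among the best 100000 of WT replicate 2. KO replicate 3 lay with the WT libraries there, and the gain was 0.53 ± 0.23 (unadjusted p = 0.0438, adjusted p = 0.329).

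Gains of either sign were found within the Gli3 gene and beside it. Inside the gene, chr13:15479470-15479943 lies 15747 bp from the lower span end, where the gene starts, and ranked 32511, 33383 and 28864 in KO libraries and 18462, 7449 and 9651 in WT libraries. All WT ranks were better, with a gain of −1.52 ± 0.41, an unadjusted p of 0.00388 and an adjusted p of 0.263. The best Gli3 region by mean rank, chr13:15660427-15660913, ranked 16919, 14927 and 8186 in KO libraries and 12277, 3885 and 8728 in WT libraries, with overlap and a gain of −0.77 ± 0.54 (adjusted p = 0.492). Beyond the gene, 73879 bp above it, chr13:15803905-15804303 ranked 10225, 15041 and 14653 in KO libraries and 24106, 28411 and 24501 in WT libraries. Here all KO ranks were better, with a gain of 0.97 ± 0.36 and an adjusted p of 0.289.

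**Figure D4:**
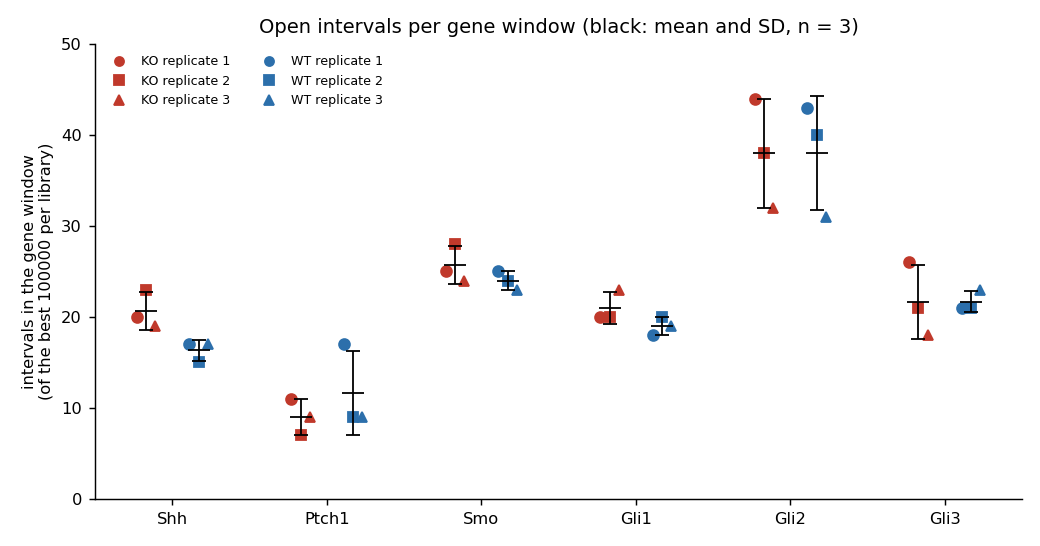
Number of the best 100000 intervals of each library in the window of each Hedgehog gene (span widened by 100 kb), with the mean and SD of 3 KO and 3 WT libraries. The Shh counts do not overlap, at 19 to 23 in KO libraries and 15 to 17 in WT libraries, and those of the other 5 genes do.

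The ligand gene of basal cells was then set against the response genes, by the mean −log2 rank of the tested regions of each window. On this scale a higher, less negative value is a better rank. Shh averaged −15.34, −15.23 and −15.16 in KO libraries and −14.97, −15.26 and −15.07 in WT libraries, with overlap. Ptch1 averaged −14.80, −14.92 and −15.23 in KO libraries and −15.55, −15.28 and −15.47 in WT libraries, so that KO replicate 3 came closest to the WT libraries. Smo averaged −14.22, −14.29 and −14.32 in KO libraries and −14.77, −14.46 and −14.56 in WT libraries. Gli1 averaged −14.28, −14.57 and −14.66 in KO libraries and −14.89, −14.80 and −14.92 in WT libraries. For Ptch1, Smo and Gli1 every KO library had a higher mean than every WT library, a pattern shown by 11.7% of 18569 gene windows in that direction and by 5.61% in the other. The differences were 0.45 for Ptch1, 0.37 for Gli1 and 0.32 for Smo, where the 5th to 95th percentiles over all gene windows were −0.31 and 0.26. As described above, most regions counted for Smo and Gli1 were nearest to other genes. The Ptch1 mean rests on 7 of 23 regions. The rest, with an interval in fewer than 3 libraries, were left out, among them 10 in WT lists only and 4 in KO lists only. Gli2 and Gli3 differed by −0.09 and 0.00, with overlap, and Shh by −0.14.

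The Shh mean minus the mean of the other 5 gene means was −0.49, −0.29 and −0.05 in KO libraries and 0.30, −0.21 and 0.14 in WT libraries. It averaged −0.28 ± 0.22 in KO libraries and 0.08 ± 0.26 in WT libraries (SD, n = 3 each), a difference of −0.36. Over all libraries the groups overlapped, since KO replicate 3 lay above WT replicate 2. Within the replicate numbers, the KO value minus the WT value was −0.79, −0.08 and −0.19 for numbers 1, 2 and 3. The sign was the same for each number, and the size rested mostly on number 1. For number 1 the deviations from the group means correlated at only 0.105. KO replicate 3 and WT replicate 1 reached 0.318, so a pairing by number is not borne out there. Against Ptch1 and Gli1 alone, the target genes of the pathway, the values were −0.80, −0.48 and −0.22 in KO libraries and 0.26, −0.23 and 0.13 in WT libraries, a difference of −0.55. Within the numbers this contrast was −1.06, −0.26 and −0.34. No test was made of this contrast. The sign and size of the contrast with all 5 genes depended on how far the windows reached. It was 0.11 with spans widened by 5 kb, −0.07 with 50 kb and −0.07 with 200 kb.

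**Figure D5:**
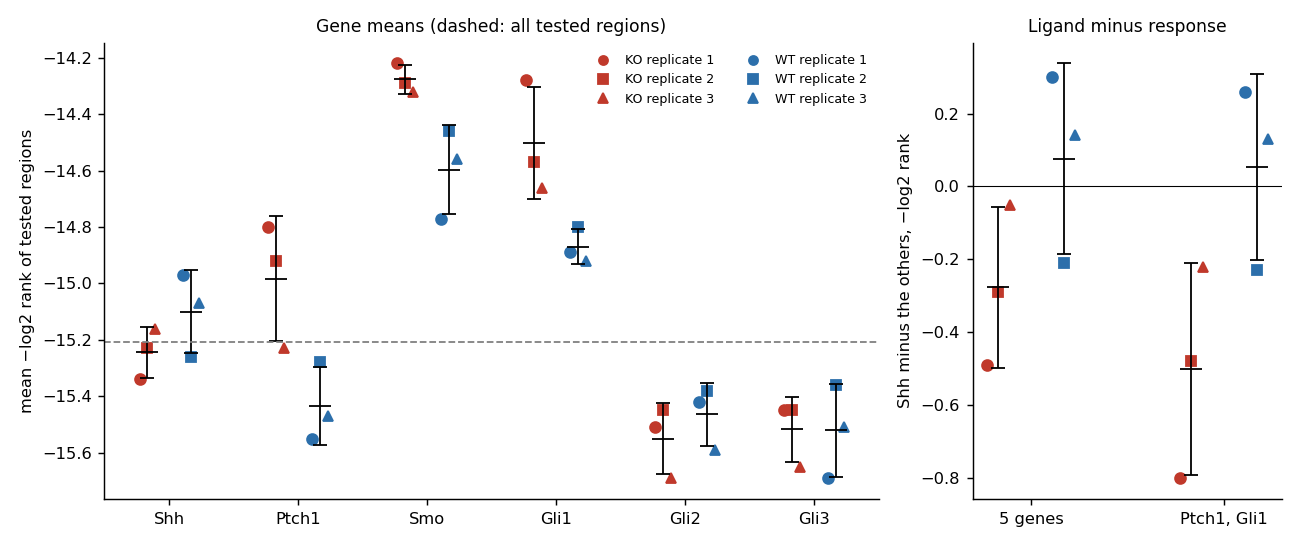
Mean −log2 rank of the tested regions of each gene window (left, higher is a better rank, the mean over all tested regions dashed) and the Shh mean minus that of the other genes (right, all 5 or Ptch1 and Gli1), by library, with mean and SD of 3 KO and 3 WT libraries. Ptch1, Smo and Gli1 do not overlap between genotypes, whereas Shh and the difference between Shh and the other 5 genes do. The Ptch1 mean holds 7 of its 23 regions, those with an interval in at least 3 libraries.

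Other genes of the pathway were read at their ends, as the best region within 500 bp of a span end. Of the listed genes, in 4 groups, none had a region that passed an adjusted p of 0.05 (limma), and 0% of the 13753 gene-end regions tested did. Gene-end regions as a whole leaned towards KO, with a median gain of 0.22, 69.9% above 0, 8.44% at an unadjusted p below 0.05 and higher in KO, and 1.71% lower. Among the genes for other ligands and for ligand processing and release, 4 of 5 had a tested region, with a median gain of 0.37. Dhh, the gene of Desert hedgehog, ranked 5938, 12169 and 8901 in KO libraries and 16196, 16894 and 14569 in WT libraries (gain 0.88 ± 0.42). Disp1, which encodes the Dispatched protein that releases the lipid-bearing ligand, ranked 61424, 50920 and 29140 in KO libraries and 18896, 26616 and 10402 in WT libraries. Its WT ranks were all better, with a gain of −1.37 ± 0.43, an unadjusted p of 0.00945 and an adjusted p of 0.270.

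Of the 9 genes of reception, all were tested, 8 had a gain above 0 and the median was 0.35. Gpr161, a ciliary receptor that restrains the pathway, ranked 22072, 13476 and 22884 in KO libraries and 35739, 26041 and 46114 in WT libraries, without overlap, and its gain was 0.89 ± 0.37 (adjusted p = 0.317). The single gain below 0 was that of Evc2, a partner of Smoothened at the cilium, at −0.03 ± 0.26. By interval counts, 5 windows of ligand processing, 9 of reception, 15 of transduction and 14 of targets were tested. Boc, which encodes a co-receptor, was the 1 gene of these 4 groups with an unadjusted p below 0.05 (log2 difference −0.37 ± 0.09, limma adjusted p = 0.384). Over all gene windows, 7.59% had such a p with more intervals in KO and 3.69% with fewer, so this count is not a result about these groups. Of 16 genes of transduction, 13 were tested, with 8 gains above 0 and a median of 0.16. Kif7, the kinesin of the ciliary tip, ranked 80508, 46813 and 58156 in KO libraries and 98976, 83708 and 85677 in WT libraries, again without overlap (gain 0.57 ± 0.23, adjusted p = 0.304). Prkar1a, a regulatory subunit of protein kinase A, had a gain of −0.49 ± 0.19 (adjusted p = 0.290).

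Known Hedgehog targets gave 9 tested gene ends of 15, with 8 gains above 0 and a median of 0.10, below the median of all gene ends. Hhip, whose product binds and restrains the ligand, ranked 67572, 50171 and 85866 in KO libraries and 72025, 69228 and 91690 in WT libraries. It stands in both the reception and the target group, and its ranks overlapped between genotypes. Bcl2, the survival gene, had the smallest p of the group, with ranks of 47630, 52085 and 54717 in KO libraries and 81221, 69460 and 81203 in WT libraries, a gain of 0.58 ± 0.22 and an adjusted p of 0.288. Ccnd1, the cyclin D1 gene, ranked between 6309 and 10323 in KO libraries and between 5756 and 9071 in WT libraries (gain −0.19 ± 0.46). The stromal targets Bmp4, Wnt2 and Foxl1 and the cyclin gene Ccnd2 had no gene-end region among the best 100000 of any library. Other targets did have one. Foxf1 ranked 61176, 55611 and 86064 in KO libraries and 56370, 65094 and 79830 in WT libraries. Foxf2 had one in the KO libraries and WT replicate 1, and Wnt5a in KO replicates 1 and 2 and WT replicates 2 and 3.

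The label of the cells was checked at marker genes, counted by a gene-end region among the best 50000 of a library. Of all 21900 protein-coding genes, 47.5% to 52.0% had one in KO libraries and 45.4% to 46.9% in WT libraries. Of 15 luminal urothelial markers, 8 to 10 were open in KO libraries and 6 to 9 in WT libraries. Of the 14 luminal gene ends tested, 10 had a gain above 0 and 4 below 0, with a median of 0.14, below that of all gene ends, and none was called. Upk1b, which encodes a plaque protein (uroplakin) of the umbrella cells, had the smallest luminal p (gain 1.53, limma adjusted p = 0.263). Of the other uroplakin genes listed, Upk3a and Upk3b had gains of 0.92 and 0.40, and Upk1a and Upk2 had gains of −0.22 and −0.15. By interval counts in the window, 6 of 15 luminal genes had more intervals in KO libraries at an unadjusted p below 0.05 and none fewer, against 7.59% and 3.69% of all gene windows, and neighbours such as Krt8 and Krt18 share intervals. No such window was called, and the part of luminal cells in the Shh count, which was also higher in KO libraries, was not tested. Of 12 basal markers, the class that holds the known source of Shh, 5 to 7 were open in KO libraries and 2 to 3 in WT libraries. The median rank over the basal list ran from 43450 to 59440 in KO libraries and from 61648 to 73616 in WT libraries, and Trp63 and Lamb3 had no end region. Itgb4, a hemidesmosome gene, had the smallest basal p with a higher rank in KO (gain 0.69 ± 0.31, adjusted p = 0.336), and Krt14, a basal keratin gene, the smallest with a lower one (gain −0.31 ± 0.14, adjusted p = 0.330). No basal marker was called, and the median basal gain was 0.25 with 7 of 9 above 0, near the 0.22 and 69.9% of all gene ends. By interval counts, 1 of 12 basal windows had more intervals in KO libraries at an unadjusted p below 0.05 (Krt5, 0.37 on the log2 scale) and 1 fewer (Cd44, −0.21). The part of basal cells in the Shh count was not tested. The number of basal cells and the openness of chromatin per basal cell cannot be told apart in these bulk libraries.

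Markers of stromal, muscle, vessel and blood cells were counted in the same way. Of 12 fibroblast markers, 1 to 2 were open in KO libraries and 1 to 4 in WT libraries. The median rank of this list ran from 70533 to 94525 in KO libraries and from 65912 to 86082 in WT libraries. Vim ranked 18925, 27336 and 18712 in KO libraries and 21600, 26485 and 20193 in WT libraries, while Lum had no end region. By interval counts, 4 of 11 fibroblast windows had fewer intervals in KO libraries at an unadjusted p below 0.05, with log2 differences of −0.77 for Col3a1, −0.75 for Dcn, −0.58 for Dpt and −0.48 for Col1a2, against 3.69% of all gene windows, and none had more. None of these was called. Of 8 smooth muscle markers, 2 to 3 were open in KO libraries and 2 to 3 in WT libraries. Myh11 ranked 14111, 8971 and 8868 in KO libraries and 13638, 11415 and 12425 in WT libraries, while Cnn1 and Tagln had no end region. Of 8 endothelial markers, 0 to 1 were open in KO libraries and 0 in WT libraries, and Erg, Emcn and Sox17 had no end region. Of 10 immune markers, 3 were open in each library of either genotype. Spi1 ranked 7885, 6729 and 5622 in KO libraries and 6255, 4816 and 3421 in WT libraries. Ptprc, the gene of the pan-leukocyte protein CD45, had no end region. By interval counts, 2 of 8 smooth muscle and 1 of 7 endothelial windows had more intervals in KO libraries at an unadjusted p below 0.05, against 7.59% of all gene windows. No immune window did, and none of the 3 lists had one with fewer. The part of these cell types in the ranks at Ptch1, Gli1, Gli2 and Gli3 was not tested.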

How the data were processed

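ATAC-seq had been run on 3 KO and 3 WT libraries of sorted urothelial cells, numbered as in the titles. Each library had its own peak list, not called on pooled libraries. Per the file names, reads were trimmed, duplicates and mitochondrial reads were removed, Tn5 insertion positions were used, and peaks were thresholded on p, limited in number and filtered by a blacklist. Per the submitters' processing notes, coordinates are mm10 and DiffBind was used. No aligner or peak caller is named here: not given in the sources used here. Columns of the deposited lists were read as the narrowPeak format defines them, as a ratio (the peak's fold over local background), a −log10 p, a −log10 q, a display score and a summit position by the authors' caller. All ranks rest on this reading, and neither score nor summit was used from the deposited lists. The smallest −log10 p was 3.00 in the deposited list of KO replicate 1 and 2.00 in the others, so its list of 299636 peaks is cut off differently. The other lists held 181987 to 213589 peaks. Read depth is not in the lists, and the fold at rank 100000, between 3.65 and 5.30, shows that the same rank is a different fold in each library.

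Peaks were reduced to distinct intervals with their best fold. The best 100000 by fold per library (ties by p, then position) were merged where they overlapped by at least 1 bp, and the merge was the same as that of bedtools 2.31.1. Regions with an interval in at least 3 libraries were compared as −log2 rank with limma 3.58.1 in R 4.3.3 (moderated variances with trend, Benjamini-Hochberg, 0.05). Interval counts per gene window (span widened by 100 kb) were compared as log2 of the count plus 1 in the same way, for protein-coding genes with a mean of at least 3 intervals. Gene spans, without strand or exons, and promoters came from RefSeq tables of GRCm38.p6. Other steps used Python 3.11.15, NumPy 2.4.6, pandas 2.3.3, SciPy 1.17.1 and matplotlib 3.10.9.

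The members, the gene lists and the markers were chosen with earlier results of these data known. Regions named by rule were, per gene, the best interval of the window in each library, the best region in the span, regions within 500 bp of the start or span ends, and the region of smallest p in each direction; of each pathway list and the basal markers, the genes of smallest p in each direction. Of the other marker lists, the remaining genes meeting this rule are not named for brevity. Vim, Myh11, Spi1, Foxf1, Foxf2, Wnt5a and the uroplakin genes other than Upk1b were named with their values known. Other regions are said to be chosen after their values were seen, or are given for their place beside a start or in another gene.

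Libraries numbered 2 and 3 deviated together, and those numbered 1 hardly did. The correlation of their deviations from the group means over 100565 regions was 0.105, 0.557 and 0.401 for numbers 1, 2 and 3. It was between −0.513 and 0.318 for other pairs. The numbers are those of the titles, and the library names in the descriptions number some of these libraries differently. The pairing thus rests on these correlations, which do not bear it out for number 1. With the replicate block, 16 regions were called higher and 16 lower, against 12 and 9 without it, and no Hedgehog region was called with either. Alternatives were ranking by p, best 50000, linear ranks, other library requirements, other window widths, no minimum count, the block and leaving out each library.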

Additional observations from a re-analysis of the deposited data

How the results depend on the processing

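No Hedgehog region was called under ranking by p, the best 50000 intervals, linear ranks, an interval in at least 2 or in all 6 libraries, the replicate block, or spans widened by 5, 50 or 200 kb. Leaving out each library in turn gave 0 to 2 calls higher in KO and 0 to 1 lower, with the calls all made without KO replicate 3. Over all regions, 12 were called higher and 9 lower; ranking by p gave 31 and 21, the best 50000 gave 2 and 2, an interval in at least 2 libraries gave 7 and 3, and an interval in all 6 gave 0 and 0, with 4806 and 4464 at an unadjusted p below 0.05 (limma). The block moved the lower calls to 16, and leaving out a library gave 1 to 835 higher and 1 to 1578 lower, the largest counts without KO replicate 3. Without a minimum count, 6 gene windows had more intervals in KO and 9 fewer, none of a Hedgehog gene.

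The contrast of Shh with the other 5 genes was 0.11 at 5 kb, −0.07 at 50 kb and −0.07 at 200 kb, against −0.36 at 100 kb, and the cause was not tested. The interval count of Ptch1 changed sign to 0.30 with the best 50000. That of Gli2, 0.00, was −0.01 at 50 kb and −0.13 to 0.12 over the libraries left out, where it was −0.11, −0.00 and −0.13 without KO replicate 1, KO replicate 2 and WT replicate 3. That of Gli3, −0.01, was 0.05 by p and −0.15 to 0.11 over the libraries left out, where it was 0.00, 0.11 and 0.03 without KO replicate 2, KO replicate 3 and WT replicate 3. The gain at the Gli3 start region, 0.15, was −0.04 to 0.32 over the libraries left out, with −0.04 without WT replicate 1. Of 260 values recomputed for 23 named regions, 256 kept their direction and call. Read depth is unknown. Weak intervals beyond rank 100000 were not compared between genotypes except at the start sites, where the whole lists differ in length.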
